A study of Canis lupus familiaris with 2 samples.

Results

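Integrins and laminins are the receptors and the ligands with which an epithelial cell stands on its basement membrane. An integrin is a pair of an α and a β subunit, each encoded by its own gene. A laminin is a trimer of an α, a β and a γ chain, and its name strings the chain numbers together, so that laminin-511 is built from α5, β1 and γ1. The β1 subunit pairs with many α subunits, β4 pairs with α6 alone, and αV accepts several β partners. Among the integrins known from epithelia, α3β1, α6β1 and α6β4 bind laminin, α2β1 binds collagen, and several αV integrins bind proteins with an RGD motif.

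The subunit genes were taken from the deposited lists by symbol, as ITGA followed by digits or a single letter, ITGB followed by digits only, and LAMA, LAMB or LAMC followed by digits. Of the 23510 listed genes, 37 chosen by this rule are described, namely 18 integrin α, 8 integrin β, 5 laminin α, 4 laminin β and 2 laminin γ genes. No measured value entered the rule. ITGA2B was counted with the integrin α genes.

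MDCK is an established line of canine kidney epithelium that forms a columnar sheet. The labels state that 40000 cells were plated on a culture insert and kept for 3 days in EMEM with 10% serum, and the height of the medium above the membrane set the pressure. RNA of 1 culture in 2-cm-high medium, labelled as having no pressure, was compared with RNA of 1 culture in 50-cm-high medium, labelled as having a burden of 50 cmH2O. Both cultures were the same unmodified line, and no other agent is named in their labels. With 1 culture per height no replicate error exists, so no difference below could be tested, and every ratio compares these 2 cultures only.

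The unit of every level is FPKM, the fragments on a gene scaled by the length of its exons and by the number of mapped fragments. Because it is a level per exon length, different genes can be set side by side, provided that their annotated exons are complete. The annotation used is not given, so this could not be checked. Below, the 2-cm culture and the 50-cm culture stand for the cultures in 2-cm-high and 50-cm-high medium. Of the listed genes, 11057 were above 1 FPKM in both cultures, with a median of 16.2 FPKM in the 2-cm culture and 16.3 FPKM in the 50-cm culture. Read numbers are unknown, but steps among the lowest values showed that a read added 9.77% more to the FPKM of a gene in the 50-cm culture. Of the 11 epithelial markers listed in the files, 10 were above 1 FPKM in both cultures, and CDH16, a kidney cadherin, went from 1.96 to 0.676 FPKM. Of the markers of other cells, only CD14, PPBP and SMTN were above 1 FPKM in both cultures. The 8 fibroblast markers summed to 0.374 and 0.401 FPKM in 2-cm- and 50-cm-high medium, and the 8 endothelial markers to 0.474 and 0.277 FPKM. The 7 leukocyte markers summed to 6.45 and 4.44 FPKM, most of it CD14, at 4.82 and 3.77 FPKM. Of the others, CORO1A was at 1.54 and 0.665 FPKM, CD79A at 0.0932 and 0 FPKM, and PTPRC, CD3E, SPI1 and LCP1 were listed at 0. The 4 platelet markers summed to 4.59 and 5.45 FPKM, most of it PPBP, and the 6 muscle markers to 16.0 and 17.3 FPKM, nearly all of it SMTN. The part of these shifts in the values below was not tested. In RNA of a whole culture, fewer cells of a type and less RNA per cell cannot be told apart.

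Of the 37 subunit genes, 18 were above 1 FPKM in both cultures, 6 were above 0 but below 1 FPKM in both, 2 were listed at 0 in 50-cm-high medium only, and 11 were listed at 0 in both. The 18 were 6 integrin α, 6 integrin β, 2 laminin α and 3 laminin β genes and 1 laminin γ gene. They were abundant. All but ITGA5 and ITGAE lay between 16.2 and 169 FPKM in the 2-cm culture and between 12.2 and 207 FPKM in the 50-cm culture, and 15 of the 18 were above the median of the 11057 genes in each culture.

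None of the 18 subunit genes passed 2-fold, and none passed 1.5-fold, in either direction. Over all 11057 genes, 0.389% were more than 2-fold higher in 50-cm-high medium and 1.28% more than 2-fold lower, and 2.13% were more than 1.5-fold higher and 5.06% more than 1.5-fold lower. At those shares, a set of 18 genes with no member past either size differs little from the background. The ratios of 50-cm over 2-cm FPKM ran from 0.752 for ITGB8 to 1.40 for ITGA3. A ratio above 1 was found for 13 of the 18, and for 52.6% of all genes. The median log2 ratio was 0.13 over the 18 subunit genes, 0.23 over the 12 integrin genes and 0.08 over the 6 laminin genes, beside 0.01 over all genes. At a smaller size of 1.25-fold, chosen after the ratios had been seen, ITGA3, ITGA6, ITGAE and LAMA3 were higher in 50-cm-high medium and ITGB8 and LAMB2 were lower. These are 22.2% and 11.1% of the 18 genes, and over all genes 10.5% were higher and 13.3% lower by that size. The side of this size depended on the setting for ITGA6, with a ratio between 1.21 and 1.24 under 4 of the 8 alternatives, for ITGAE, with 1.17 with a pseudocount of 1 FPKM and 1.23 after rescaling without the 10 highest genes, and for ITGA5, which had 1.37 with quantile normalization.

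**Figure D1:**
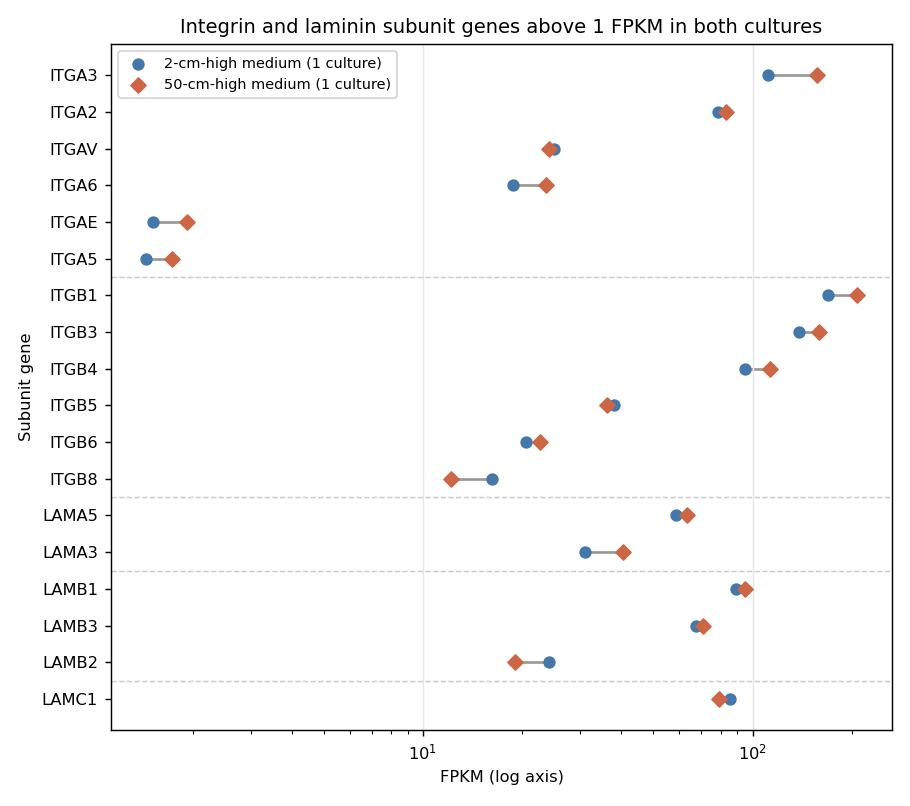
FPKM (log axis) of the 18 subunit genes above 1 FPKM in both cultures, with a circle for the culture in 2-cm-high medium, a diamond for the culture in 50-cm-high medium, a line joining them and dashed lines between classes. ITGB1 is the highest gene in both cultures, at 169 and 207 FPKM, and ITGA5 and ITGAE stand apart at the low end, below 2 FPKM.

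All 4 expressed genes of the integrins that bind laminin had a ratio above 1, as had 9 of the 12 integrin genes and 52.6% of all genes. ITGA3 encodes the α3 subunit, the main laminin receptor of many epithelia with β1. It had 112 FPKM in the 2-cm culture and 157 FPKM in the 50-cm culture. This ratio of 1.40 (0.49 on the log2 scale) was the highest of the 18 genes and was exceeded by 3.78% of all genes. ITGA6, whose product pairs with either β1 or β4, had 18.8 FPKM in the 2-cm culture and 23.5 FPKM in the 50-cm culture, a ratio of 1.25. ITGB1, the shared β subunit, went from 169 to 207 FPKM, a ratio of 1.23. ITGB4 encodes the β4 subunit, which has a long cytoplasmic tail and anchors keratin filaments at hemidesmosomes. It went from 95.1 to 113 FPKM, a ratio of 1.19. The remaining laminin-binding α subunit, ITGA7, which is best known from muscle, was at 0.467 and 0.569 FPKM.

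By heterodimer, the β gene was the higher partner of each expressed laminin receptor in both cultures. ITGB1 was 1.51 times ITGA3 in the 2-cm culture and 1.32 times in the 50-cm culture. ITGB4 was 5.07 times ITGA6 in the 2-cm culture and 4.79 times in the 50-cm culture, so ITGA6 was the lower partner of α6β4 in both. Taken pair by pair, the level of the lower partner thus went from 112 to 157 FPKM for α3β1. It went from 18.8 to 23.5 FPKM for α6β1 and α6β4. But β1 is shared, and its 12 α partners together summed to 237 and 291 FPKM, above ITGB1 at 169 and 207 FPKM. Some of these α subunits pair with other β subunits as well, so the pairs do not show which partner of β1 integrins was in excess. All these values are levels of RNA, and neither the amount of assembled receptor nor the split of α6 between β1 and β4 was measured.

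ITGA2 was the only collagen-binding α subunit gene above 1 FPKM. It had 78.8 FPKM in the 2-cm culture and 83.2 FPKM in the 50-cm culture, a ratio of 1.06, which 39.2% of all genes exceeded. Beside the higher ITGB1, the ratio of ITGB1 to ITGA2 went from 2.14 to 2.49. The other collagen-binding genes were low. ITGA1 was at 0.793 and 0.676 FPKM, ITGA10 at 0.450 and 0.404 FPKM, and ITGA11 was listed at 0 in both cultures.

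The αV subunit, which with its β partners binds fibronectin, vitronectin, osteopontin and the latent form of TGF-β, showed little difference between the cultures. ITGAV had 25.0 FPKM in the 2-cm culture and 24.2 FPKM in the 50-cm culture, a ratio of 0.968. Its β partners differed in direction. ITGB3 went from 138 to 159 FPKM (ratio 1.15), and ITGB6, an epithelial subunit, from 20.6 to 22.7 FPKM (ratio 1.11). ITGB5 went from 37.9 to 36.3 FPKM (ratio 0.957). ITGB8, whose αV heterodimer presents latent TGF-β for activation, had the lowest ratio of the 18 genes, 0.752, with 16.2 FPKM in the 2-cm culture and 12.2 FPKM in the 50-cm culture, and 9.36% of all genes had a lower ratio. The ratio of ITGB1 to ITGB8, both partners of αV, went from 10.4 to 17.0, a shift of 1.63-fold that does not depend on how the libraries were scaled. This pair was picked after the values had been seen, as the β genes with the highest and the lowest ratio.

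ITGB3 was far more abundant than the α subunits with which β3 pairs. It was 5.54 times ITGAV in the 2-cm culture and 6.59 times in the 50-cm culture. ITGA2B, the platelet partner of β3, was at 0.601 and 0.495 FPKM. The 5 β partners of αV summed to 382 and 438 FPKM, against 25.0 and 24.2 FPKM of ITGAV, so αV was the lower partner in αVβ1, αVβ3 and αVβ5. In αVβ6 and αVβ8 the β gene was the lower partner in both cultures. The 12 α partners of β1 summed to 237 FPKM in the 2-cm culture and 291 FPKM in the 50-cm culture, a ratio of 1.23, the same as that of ITGB1 to the digits given. ITGA3 alone made up most of the difference between these sums.

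ITGA5, the α subunit of the classical fibronectin receptor, was low in both cultures, at 1.44 and 1.73 FPKM. ITGAE, the α subunit that binds E-cadherin on intraepithelial lymphocytes, was at 1.51 and 1.93 FPKM. Their ratios were 1.20 and 1.27, and their level carries more scatter. The log2 ratios of the 500 genes closest in level had a scaled median absolute deviation of 0.47 around ITGA5 and 0.48 around ITGAE, compared with 0.18 around ITGA3. This is a spread between genes and not an error of measurement. ITGB7, the partner of αE, was at 0.547 and 0.400 FPKM.

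Apart from ITGAE and ITGB7, the genes of the leukocyte integrins were at or near 0. ITGB2, which is shared by the αL, αM, αX and αD receptors, was at 0.0993 FPKM in the 2-cm culture and 0.0545 FPKM in the 50-cm culture. ITGAL, ITGAM and ITGAX were listed at 0 in both cultures. ITGAD was at 0.0203 FPKM and ITGA4 at 0.0657 FPKM in 2-cm-high medium, and both were listed at 0 in 50-cm-high medium. ITGA8 and ITGA9 were listed at 0 in both. A listed 0 does not show that a gene was silent, since ATP5O, a subunit of the mitochondrial ATP synthase that such cells use, was also listed at 0 in both cultures. The ratios of 4 of the 6 genes between 0 and 1 FPKM lay within 0.05% of those given by few reads. ITGB2 matched 1 read in 50-cm-high against 2 in 2-cm-high medium, ITGB7 matched 2 against 3, ITGA2B 3 against 4 and ITGA7 10 against 9, or multiples of these. Such a match was found for 52.1% of all genes between 0.1 and 1 FPKM and for 2.05% of those with a mean above 30 FPKM, where so few reads do not occur.

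**Figure D2:**
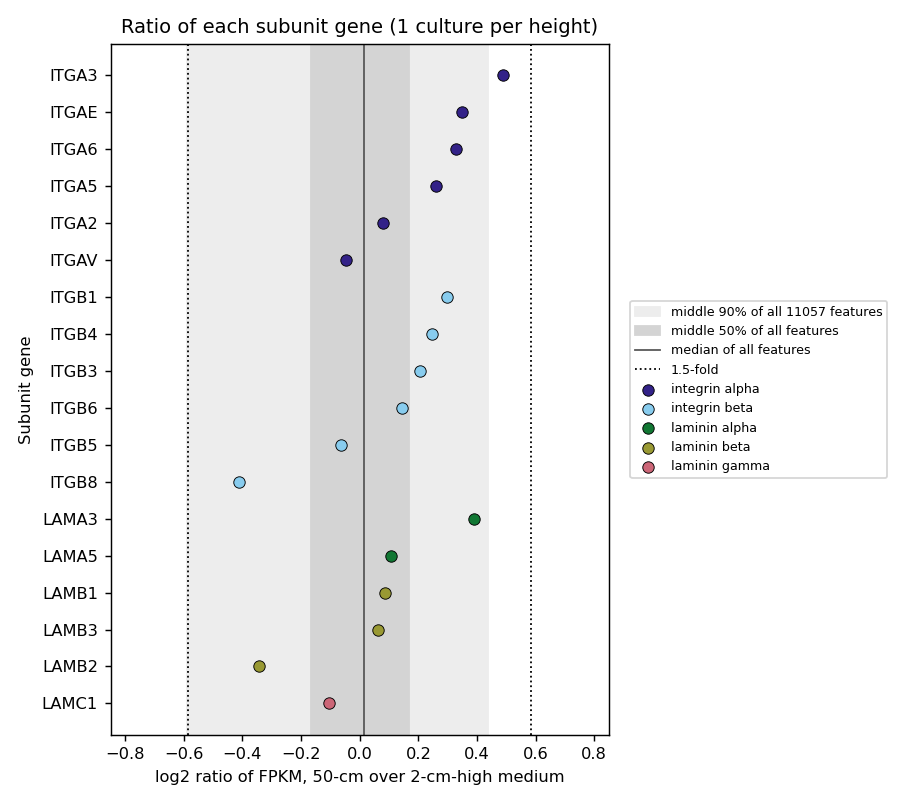
Log2 ratio of 50-cm over 2-cm FPKM of the 18 subunit genes (points, coloured by class), with the middle 50% and 90% of all 11057 genes shaded, their median as a line and dotted lines at 1.5-fold. ITGA3 at 0.49 lies above the shaded range, which ends at 0.44, and no point passes 1.5-fold.

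Among the laminins, the α3 chain gene was higher in 50-cm-high medium, and the other chains differed less or were lower. LAMA3 encodes the α3 chain, which is typical of the laminins beneath skin and other epithelia. It had 31.0 FPKM in the 2-cm culture and 40.6 FPKM in the 50-cm culture, a ratio of 1.31 that 7.01% of all genes exceeded. LAMB3 encodes the β3 chain, also of epithelial laminins. It went from 67.6 to 70.6 FPKM, a ratio of 1.05. LAMA3 was the lower of this pair in both cultures, at 0.459 times LAMB3 in the 2-cm culture and 0.575 times in the 50-cm culture.

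The chains of laminin-511, the common laminin of mature epithelial basement membranes, differed less. LAMA5 went from 58.6 to 63.1 FPKM, a ratio of 1.08, and LAMB1 from 89.2 to 94.8 FPKM, a ratio of 1.06. LAMC1, the γ chain of most laminins, went from 85.3 to 79.3 FPKM, a ratio of 0.929. LAMB2, which takes the place of β1 in laminin-521 and is prominent in the glomerulus and at muscle junctions, had 24.1 FPKM in the 2-cm culture and 18.98 FPKM in the 50-cm culture. Its ratio of 0.787 was the lowest among the laminin genes, and 12.1% of all genes had a lower one. LAMA1, LAMA2 and LAMA4, the α chains of embryonic, muscle and vascular laminins, were listed at 0 in both cultures, as were LAMB4 and LAMC3.

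By trimer, 4 of 13 laminins considered had all chains above 1 FPKM in both cultures, namely laminin-311, laminin-321, laminin-511 and laminin-521. Laminin-511 had the highest lowest chain, LAMA5 at 58.6 and 63.1 FPKM. For laminin-521 and laminin-321 the lowest chain was LAMB2. Of 24 known integrin heterodimers, 10 had both subunits above 1 FPKM in both cultures. These were β1 with α2, α3, α5, α6 or αV, β4 with α6, and αV with β3, β5, β6 or β8.

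**Figure D3:**
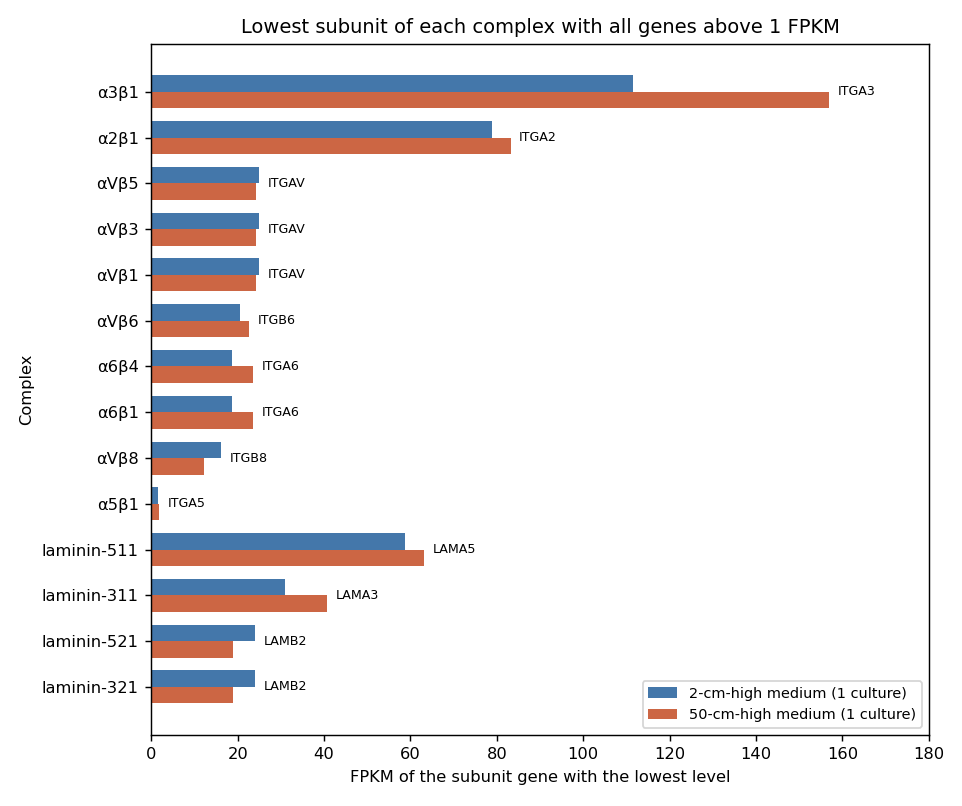
FPKM of the least abundant subunit gene (named beside the bars) of each of the 10 integrin heterodimers and 4 laminin trimers with all subunits above 1 FPKM in both cultures. The longest bars are those of α3β1, at 112 and 157 FPKM, and α5β1 is the lowest, at 1.44 and 1.73 FPKM.

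Shares within a class do not depend on how the libraries were scaled. LAMA3 went from 34.6% to 39.1% of the α chain sum, with LAMA5 as the rest. LAMB2 went from 13.3% to 10.3% of the β chain sum. LAMB1 and LAMB3 took up 49.3% and 37.4% of it in the 2-cm culture and 51.4% and 38.3% in 50-cm-high medium. Among the integrin α genes, ITGA3 went from 46.6% to 53.4%, ITGA2 from 32.9% to 28.3% and ITGAV from 10.4% to 8.24%. The β genes shifted by less than 2.3 percentage points each, ITGB1 most, from 35.3% to 37.6%. The summed FPKM was 1.23 times as high in 50-cm-high medium for the integrin α genes, 1.15 times for the β genes, 1.16 times for the laminin α and 1.02 times for the laminin β chain genes.

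**Figure D4:**
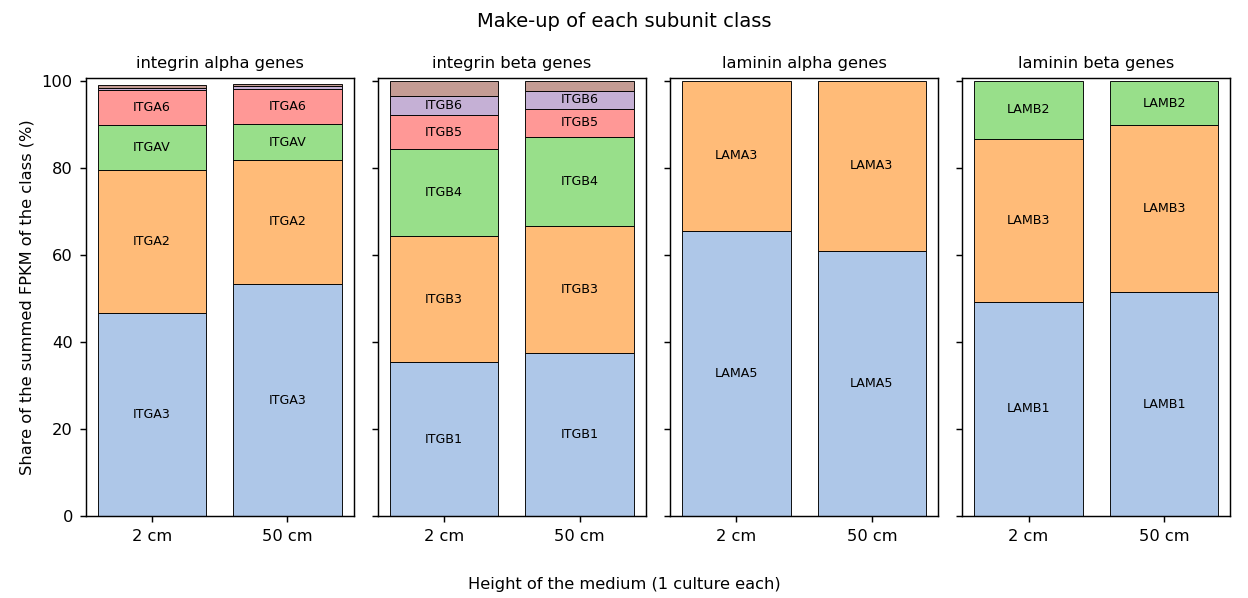
Share (%) of each gene in the summed FPKM of its subunit class, for the culture in 2-cm-high medium (left bar) and in 50-cm-high medium (right bar); slices too thin to label are ITGA5, ITGAE and ITGB8. ITGA3 moves most, from 46.6% to 53.4%.

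The genes that work with integrins and laminins were read from lists written with earlier results of these data known. Of 31 focal adhesion and integrin activation genes above 1 FPKM in both cultures, 2 were more than 1.5-fold higher in 50-cm-high medium and 1 was more than 1.5-fold lower, with a median log2 ratio of 0.05. Over all genes 2.13% were higher and 5.06% lower by that size, and counts this small do not tell the list apart from all genes. TNS4, a tensin that binds the tail of β1, had 13.1 FPKM in the 2-cm culture and 26.4 FPKM in the 50-cm culture. Its ratio of 2.01 was the only one of the list past 2-fold, and 0.389% of all genes were higher by that size. PARVB and LIMS2 both belong to families that form a complex with the integrin-linked kinase. PARVB went from 4.05 to 6.88 FPKM (ratio 1.70), and LIMS2 from 2.48 to 1.60 FPKM (ratio 0.646).

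Of the 4 hemidesmosome genes, PLEC, which encodes the plectin that ties α6β4 to keratin filaments, was more than 1.5-fold higher, beside 2.13% of all genes. It went from 86.1 to 139 FPKM, a ratio of 1.61. Of 4 tetraspanin genes above 1 FPKM, all had a ratio above 1, as had 52.6% of all genes, and 1 was more than 1.5-fold higher, against 2.13% of all genes. It was TSPAN4, which went from 19.1 to 29.5 FPKM (ratio 1.54). Tetraspanins are membrane proteins that associate with laminin-binding integrins. CD151, a further tetraspanin counted with the hemidesmosome genes and named after its values had been seen, was at 127 and 136 FPKM (ratio 1.07). The median log2 ratio was 0.11 over the hemidesmosome genes and 0.16 over the tetraspanin genes.

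Of 9 basement membrane partners of laminin above 1 FPKM, none was more than 1.5-fold higher and 2 were more than 1.5-fold lower in 50-cm-high medium, against 2.13% and 5.06% of all genes, with a median log2 ratio of 0.09. COL7A1, the collagen of anchoring fibrils, went from 2.89 to 1.67 FPKM (ratio 0.578), and COL18A1 from 9.16 to 6.04 FPKM (ratio 0.6598). The 12 laminin receptors other than integrins, with the enzymes that glycosylate dystroglycan among them, held no gene past 1.5-fold and had a median log2 ratio of -0.04. BCAM, a receptor for the laminin α5 chain, went from 76.9 to 97.9 FPKM (ratio 1.27) and DAG1, which encodes dystroglycan, from 60.0 to 52.0 FPKM (ratio 0.867).

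Of 15 integrin ligands other than laminin above 1 FPKM, 3 were more than 1.5-fold higher and 2 more than 1.5-fold lower in 50-cm-high medium, against 2.13% and 5.06% of all genes, with a median log2 ratio of 0.11. CYR61, a matricellular ligand of several αV integrins, went from 103 to 171 FPKM (ratio 1.66). THBS1, or thrombospondin 1, went from 111 to 170 FPKM (ratio 1.53), and ICAM1, the ligand of leukocyte β2 integrins, from 21.9 to 36.3 FPKM (ratio 1.65). The lower genes were FBLN5, from 7.74 to 4.86 FPKM (ratio 0.627), and SPP1, which encodes osteopontin, from 12470 to 8135 FPKM (ratio 0.652). FN1, the fibronectin gene, named after its values had been seen, lay just inside 1.5-fold with 52.7 and 77.6 FPKM (ratio 1.47).

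**Figure D5:**
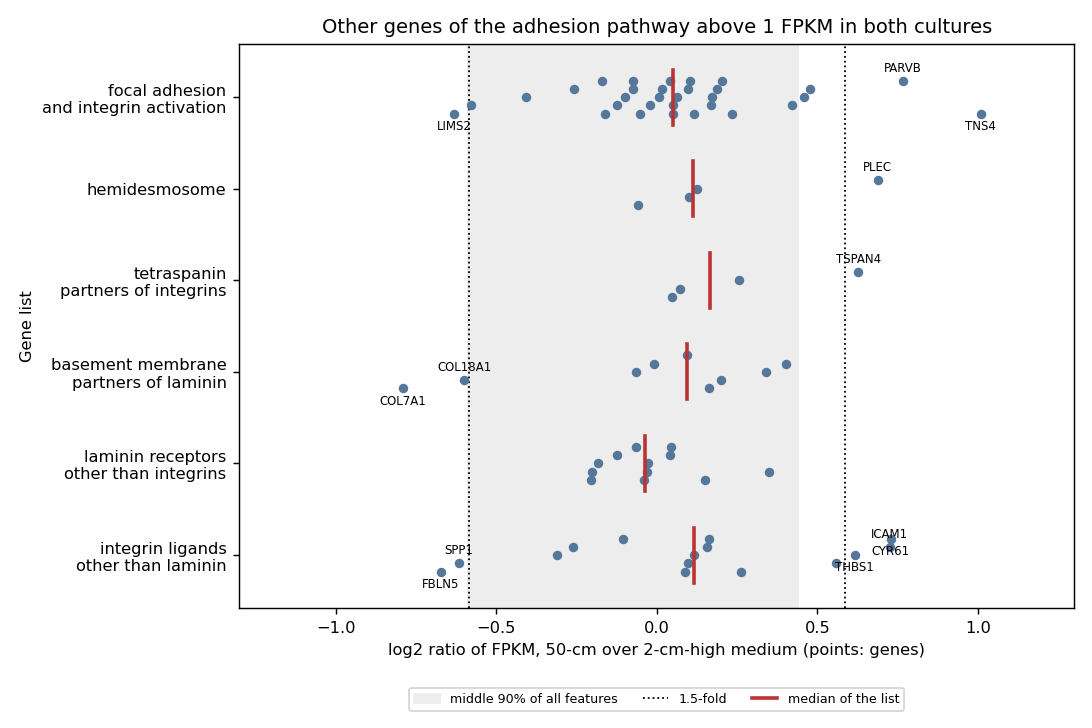
Log2 ratio of 50-cm over 2-cm FPKM of the other adhesion genes above 1 FPKM in both cultures, 1 row per list (points are genes, bars are list medians, dotted lines mark 1.5-fold, shading the middle 90% of all genes). List medians run from -0.04 to 0.16, and the named points, among them TNS4 at 1.01 and PLEC at 0.69, are those past 1.5-fold.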

How the data were processed

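RNA of 2 MDCK cultures was compared. The authors sequenced stranded mRNA libraries as 75-base single-end reads. They aligned these with TopHat 2.0.13, which ran Bowtie 2 (2.2.3) and SAMtools (0.1.19), to the dog genome build CanFam3.1, and deposited FPKM values from Cuffnorm 2.2.1. The gene annotation and Cuffnorm's scaling method are not given in the sources used here. Neither read counts nor replicates were analysed here, so depth is unknown and no interval or p-value is given.

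The 50-cm FPKM was divided by the 2-cm FPKM, without a pseudocount, for genes above 1 FPKM in both cultures and read at 2-fold and at 1.5-fold. The subunit genes, complexes and lists were chosen with earlier results of these data known. By rule, every subunit gene above 1 FPKM in either culture is named with both values, low subunit genes where a partner is expressed, and list members past 1.5-fold or, failing those, the most extreme. Other low members are named for completeness. TNS2, CSRP1, CD81, CD68 and PF4 were not found under these symbols. 1 further gene chosen by the symbol rule, with its complex, is not reported here. All 37 subunit symbols matched RefSeq, whose assembly differs from the authors' build, so no coordinates are given. The steps for ratios and calls were run on simulated data with set ratios, which checks their arithmetic only. The tools were Python (3.11.15) with pandas (2.3.3), numpy (2.4.6) and matplotlib (3.10.9).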

Additional observations from a re-analysis of the deposited data

How the results depend on the processing

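None of the 18 subunit genes passed 2-fold or 1.5-fold, and none of the 142 recomputed ratios crossed 1, under the 8 alternatives. For most of these ratios that was fixed in advance. The settings of the FPKM minimum leave each ratio unchanged, and a pseudocount only draws it toward 1. Only recentring on the median, quantile normalization and rescaling without the 10 highest genes could have moved a ratio past a size or across 1. The count rose to 6 genes only at the 1.25-fold size that was added after the ratios had been seen. The median log2 ratios of the integrin α, integrin β and laminin genes stayed above 0 but moved by over 0.05 under some settings. For the integrin α genes, 0.29 as reported, the median was 0.17 with a minimum of 0.1 FPKM and 0.20 with a minimum of 5 FPKM, where low genes enter or leave the list, 0.19 with a pseudocount of 1 FPKM, 0.35 with quantile normalization and 0.24 after rescaling without the 10 highest genes. For the integrin β genes, 0.17 as reported, it was 0.12 both with quantile normalization and after that rescaling. For the laminin genes, 0.08 as reported, it was 0.013 and 0.025, respectively. The median over all genes, 0.01 as reported, moved as well, to 0.008 with quantile normalization and -0.036 after that rescaling. The cause of the moves under quantile normalization was not tested, while the rescaling divides all ratios by 1 factor. The ratio of ITGA3 ranged from 1.33 to 1.40. No paired analysis was possible because each medium height has 1 culture, and for the same reason no culture could be left out.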

Other observations

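The symbol rule left out some genes with related names. ITGB1BP1, whose product binds the β1 tail, was at 77.0 and 77.4 FPKM in the 2-cm and the 50-cm culture, and ITGB3BP at 11.6 and 11.3 FPKM. ITGB1BP2, the muscle protein melusin, was at 2.92 and 2.55 FPKM. ITGBL1 was listed at 0 in both cultures. Netrins share domains with the laminin short arms. NTN4, which binds laminin, was at 5.58 and 5.55 FPKM, and NTN1 went from 1.83 to 1.24 FPKM, a ratio of 0.677. NTN3, NTNG1 and NTNG2 were listed at 0 in both cultures.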
